A study of Homo sapiens with 6 samples.

Results

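The clustered histone genes are the genes whose symbols begin with HIST1H, HIST2H, HIST3H or HIST4H. Symbols that contain PS or end in P and digits, which mark pseudogenes, were left out. Of 56303 genes in the count table, 89 carried these prefixes, 14 were left out and 75 were members: 6 genes of histone H1, 17 of H2A, 23 of H2B, 14 of H3 and 15 of H4. Chromosome 6 held 55 of them, chromosome 1 held 19 and chromosome 12 held 1. In GENCODE 44, 4 of the 75 were annotated as pseudogenes, namely the H2B copies HIST2H2BB, HIST2H2BC, HIST2H2BD and HIST3H2BA, and 1 further H2B copy, HIST2H2BA, had no match there. The rule kept these 5 because of their symbols.

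The libraries came from T24 cells, an established line of human bladder carcinoma, transfected with a non-targeting siRNA (siNC, 3 libraries) or with siRNA against FBXL6 (siFBXL6, 3 libraries) and collected after 48 h. The labels number the libraries of each group 1 to 3, and these numbers were taken as replicates, although the labels do not say whether a number of siFBXL6 marks a replicate or a different siRNA. All 6 carried 1 batch label and a genotype label of wild type, and each was made from 2 µg of RNA with a stranded mRNA kit, which selects polyadenylated RNA. FBXL6 encodes an F-box protein, the substrate-binding part of a ubiquitin ligase. The total counts were 58646515, 60967902 and 56814946 in siNC and 60968158, 60898556 and 60754015 in siFBXL6, numbered by replicate.

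Clustered histone genes are transcribed in S phase, when new DNA is packed into nucleosomes built from H2A, H2B, H3 and H4 and joined by H1. Their messenger RNAs are unusual in metazoans: the end is formed by cleavage just after a conserved stem-loop, bound by the protein SLBP, and carries no poly(A) tail. Some of these genes also yield longer polyadenylated transcripts, in differentiated or non-dividing cells in particular, and the replication-independent histone variants are encoded elsewhere, mostly by ordinary polyadenylated messages. Poly(A) selection therefore favours the polyadenylated share of a clustered histone gene's RNA, but how much RNA without a tail stayed in these counts was not measured. The values here are not the gene's total RNA.

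The stem-loop that forms the tail-less end was read from the genome (GRCh38/hg38) in the 150 bases after each stop codon, on the gene's own strand, as GGNNNTNNNNANNNCC with its 6 stem bases paired (G with T allowed). It was present in 70 of 70 members with a stop codon in GENCODE 44 and in 109 of all 19919 protein-coding genes searched, which is 0.547%. It began 22 to 67 bases after the stop codon, with a median of 35 bases. The 16 bases took 10 different forms among the members, and 40 members shared the form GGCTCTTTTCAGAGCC. Outside the members, 39 genes held it, among them H2AX, the current symbol of the variant H2AFX. The stem-loops of 7 members whose values are described here are shown, because this is the end that carries no poly(A) tail. The stem and loop are in capitals, with 5 flanking bases on each side.
HIST1H1C, chr6:26055739-26055764, minus strand: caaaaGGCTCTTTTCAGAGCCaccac
HIST1H2AC, chr6:26124664-26124689, plus strand: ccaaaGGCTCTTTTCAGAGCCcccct
HIST1H2BK, chr6:27146361-27146386, minus strand: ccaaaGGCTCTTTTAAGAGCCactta
HIST1H2BE, chr6:26184205-26184230, plus strand: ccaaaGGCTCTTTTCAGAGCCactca
HIST1H2BG, chr6:26216213-26216238, minus strand: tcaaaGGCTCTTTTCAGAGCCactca
HIST1H3E, chr6:26225591-26225616, plus strand: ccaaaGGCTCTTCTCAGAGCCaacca
HIST2H4A, chr1:149833027-149833052, plus strand: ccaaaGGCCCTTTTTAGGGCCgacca

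The gene models used for counting differed in how far they ran past this element. In 37 of the 70 members no exon base lay past the stem-loop, and in 25 members over 100 exon bases did. A poly(A) signal (AATAAA or ATTAAA) was sought in the last 50 bases of the model, on the gene's strand. It lay there in 16 of these 25 members and in 3 of the 45 members with at most 100 bases past the element. It also lay there in 15979 of the 28055 genes of the table with at least 10 counts over the 6 libraries. In the 37 models without an exon base past the stem-loop the search did not reach beyond it, so it cannot show whether a signal lies further on. The 25 longer models held 58.2% of the members' summed CPM (counts scaled to library size with TMM factors), the 45 shorter models held 39.4% and the 5 copies without a stop codon there held 2.40%. The median level was 0.171 CPM per kilobase in the longer and 0.0286 CPM per kilobase in the shorter models. The members with the highest level per kilobase, HIST1H1C at 6.78 and HIST1H2BK at 4.79 CPM per kilobase, nevertheless had models that end before the stem-loop, so the counted reads overlapped the coding region and say nothing of the end of the message.

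**Figure D1:**
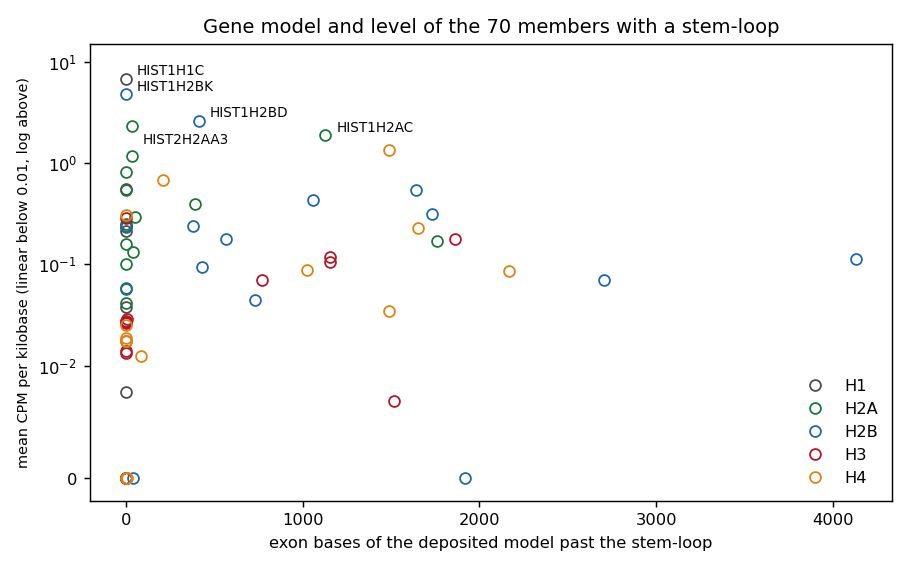
Mean level of each of the 70 members with a stem-loop (CPM per kilobase, linear below 0.01 and logarithmic above) against the exon bases of its gene model past the stem-loop, coloured by histone type. HIST1H1C at 6.78 and HIST1H2BK at 4.79 CPM per kilobase sit highest although their models end before the stem-loop.

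FBXL6, the gene the siRNA was directed at, was counted at 6.19, 6.70 and 6.93 CPM in siNC and at 6.58, 5.70 and 5.81 CPM in siFBXL6. The groups overlapped, since siFBXL6 replicate 1 lay within the range of siNC. The log2 fold change was -0.13 ± 0.09 (SE) and did not pass the test (adjusted p = 0.247, edgeR's quasi-likelihood test with Benjamini-Hochberg adjustment over 21298 genes). A lower FBXL6 message was thus not detected in these counts, and that group is named by its label, as the libraries labelled siFBXL6, in every comparison here. ACTB, a structural gene, lay at 1168 CPM on average with a log2 fold change of 0.00 ± 0.03 (SE).

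The members took a very small share of every library. They held 1611, 1745 and 1543 counts in siNC and 1604, 1529 and 1464 counts in the libraries labelled siFBXL6, or 0.00275%, 0.00286%, 0.00272%, 0.00263%, 0.00251% and 0.00241% of the counts. Of the 75 members, 12 had no count in any library, which allows up to 0.0492 to 0.0528 CPM in each (3 counts of the total). If both mates of a read pair were counted, which the sources used here do not say, the limit is 6 counts, or 0.0984 to 0.106 CPM. They were HIST1H1A, HIST1H2AA, HIST1H2BA, HIST1H2BB, HIST1H2BL, HIST1H2BM, HIST1H3C, HIST1H3I, HIST1H4G, HIST1H4J, HIST3H2BA and HIST3H2BB. A further 34 members had counts but did not pass the filter on low counts, none of them above 0.169 CPM, and 29 members were tested. The filter asks for about 10 counts in at least 3 libraries, whichever group they are in. The tested members were 2 of 6 genes of H1, 8 of 17 of H2A, 11 of 23 of H2B, 4 of 14 of H3 and 4 of 15 of H4.

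Even the most abundant member was low beside other genes. Of the 21298 tested genes, 58.4% had a higher mean CPM than HIST1H1C at 4.35, and 22 of the 29 tested members lay under 1 CPM. Of the 12 replication-independent variants, 11 lay above every member on the scale per kilobase. The highest were H3F3B, a source of the variant H3.3, at 70.4, H1F0, the linker histone of resting cells, at 57.3, H2AFZ at 48.9 and H3F3A at 35.7 CPM per kilobase. CENPA at 7.69 and H2AFJ at 7.34 CPM per kilobase lay only slightly above HIST1H1C, and the lowest, H3F3C at 1.28 CPM per kilobase, lay below the highest members of H1, H2A, H2B and H4. Among the members, the highest level per kilobase was 6.78 for H1 (HIST1H1C), 2.35 for H2A (HIST2H2AA3), 4.79 for H2B (HIST1H2BK), 0.288 for H3 (HIST1H3J) and 1.34 for H4 (HIST2H4A). These levels were not corrected for the share of RNA without a tail, which was not measured.

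**Figure D2:**
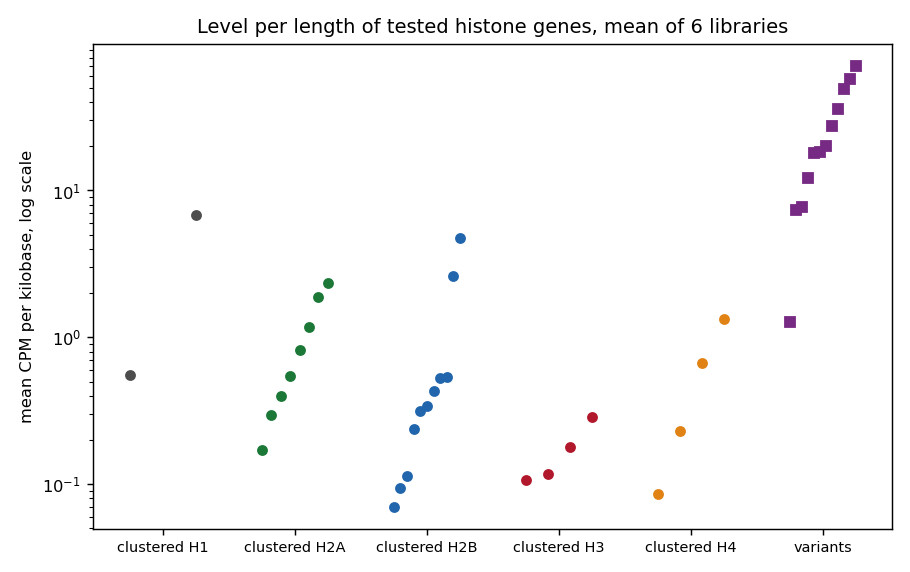
Mean level over the 6 libraries (CPM per kilobase of exon, log scale) of the 29 tested clustered histone genes by histone type (circles) and of 12 replication-independent histone variants (squares), 1 point per gene. All variants but H3F3C, at 1.28, lie above the highest clustered gene, HIST1H1C at 6.78 CPM per kilobase.

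Taken over all 75 members, the summed level was 27.5, 28.2 and 26.9 CPM in siNC and 26.5, 25.3 and 24.3 CPM in the libraries labelled siFBXL6. Every library labelled siFBXL6 thus lay below every siNC library. The means were 27.6 ± 0.688 and 25.4 ± 1.12 CPM (SD, n = 3 each), a log2 ratio of -0.12 for which no test was made. Without HIST1H1C, the largest term, the ratio was -0.08.

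The sums by histone type, which share libraries and depth, were described in the same way. For H1, the linker histone, the sums were 5.11, 6.09 and 4.93 CPM in siNC and 4.63, 4.62 and 4.28 CPM in the libraries labelled siFBXL6, a log2 ratio of -0.25, and HIST1H1C made up 88.0% of them. For H2A the sums were 7.45, 7.04 and 7.26 CPM against 7.44, 6.31 and 6.52 CPM, a log2 ratio of -0.10 with overlapping groups. For H2B, the type with the most counts, they were 9.80, 8.94 and 8.78 CPM against 8.68, 8.48 and 8.41 CPM, a log2 ratio of -0.11. In H1 and H2B, as in the total, no library labelled siFBXL6 reached the lowest siNC library. The size of these ratios rests on single libraries: H1 was -0.15 without siNC replicate 2, H2B was -0.06 without siNC replicate 1, and H2A was -0.05 without siFBXL6 replicate 2 and -0.18 without siFBXL6 replicate 1.

 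For H3 the sums were 0.735, 1.46 and 1.27 CPM against 1.46, 1.23 and 1.26 CPM, a log2 ratio of 0.19 with overlapping groups. This ratio rests on siNC replicate 1, the lowest library, without which it was -0.05, and it was 0.39 without siNC replicate 2. For H4 they were 4.45, 4.73 and 4.63 CPM against 4.32, 4.69 and 3.82 CPM, a log2 ratio of -0.11 with overlapping groups, which was -0.03 without siFBXL6 replicate 3 and -0.18 without siFBXL6 replicate 2. The makeup by type stayed close: H2B was 33.3% and 33.6% of the sum in siNC and in the libraries labelled siFBXL6, H2A was 26.3% and 26.6%, H1 19.5% and 17.8%, H4 16.7% and 16.8%, and H3 4.19% and 5.18%.

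**Figure D3:**
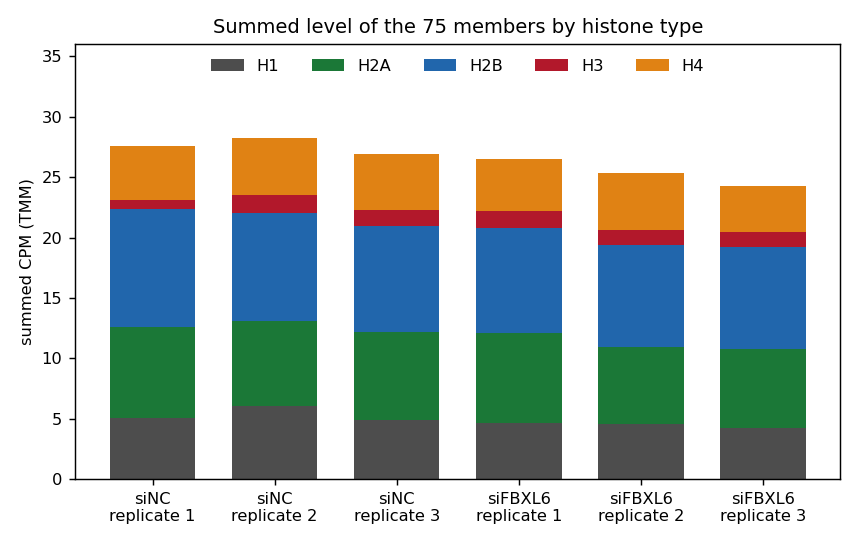
Summed CPM of the 75 members in each of the 6 libraries, stacked by histone type. The totals run from 26.9 to 28.2 CPM in siNC and from 24.3 to 26.5 CPM in the libraries labelled siFBXL6, and H2B is the largest layer in each library.

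Of the 29 tested members, 3 were lower (HIST1H1C, HIST1H2BE and HIST1H2BG) and 0 were higher in the libraries labelled siFBXL6 at an adjusted p under 0.05 in edgeR. Over all 21298 tested genes, 40.2% were called in either direction, 20.5% higher and 19.8% lower. Among the 8870 tested genes with a mean CPM no higher than that of HIST1H1C, 9.28% were called higher and 9.14% lower. The lower calls were near the share among genes of such levels, so they are not a result about the members as a group. Of the 3, HIST1H2BE passed the filter through siNC libraries alone, and with at least 10 counts asked for in every library 2 members were lower. Leaving out 1 library gave 1 member higher only without siFBXL6 replicate 2 (HIST1H2BK), and 2 to 4 lower. At an unadjusted p under 0.05, edgeR had 1 member higher and 4 lower. DESeq2 also had 0 members higher at its adjusted p, and 0 higher and 3 lower at an unadjusted p under 0.05. The log2 fold change was above 0 in 13 members and below 0 in 16, with a median of -0.07 over the members and -0.01 over all tested genes.

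The 95% interval of the log2 fold change had a median width of 1.51 over the tested members and of 0.33 over all tested genes, so at this depth only larger changes were detectable in the typical member than in the typical gene. Every library labelled siFBXL6 lay below every siNC library in 6 of the 29 members and above in 1, beside 23.9% and 24.3% of all tested genes. These percentages are not matched by level: all tested genes had a median of 7.99 CPM, and 22 of the 29 members lay under 1 CPM.

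**Figure D4:**
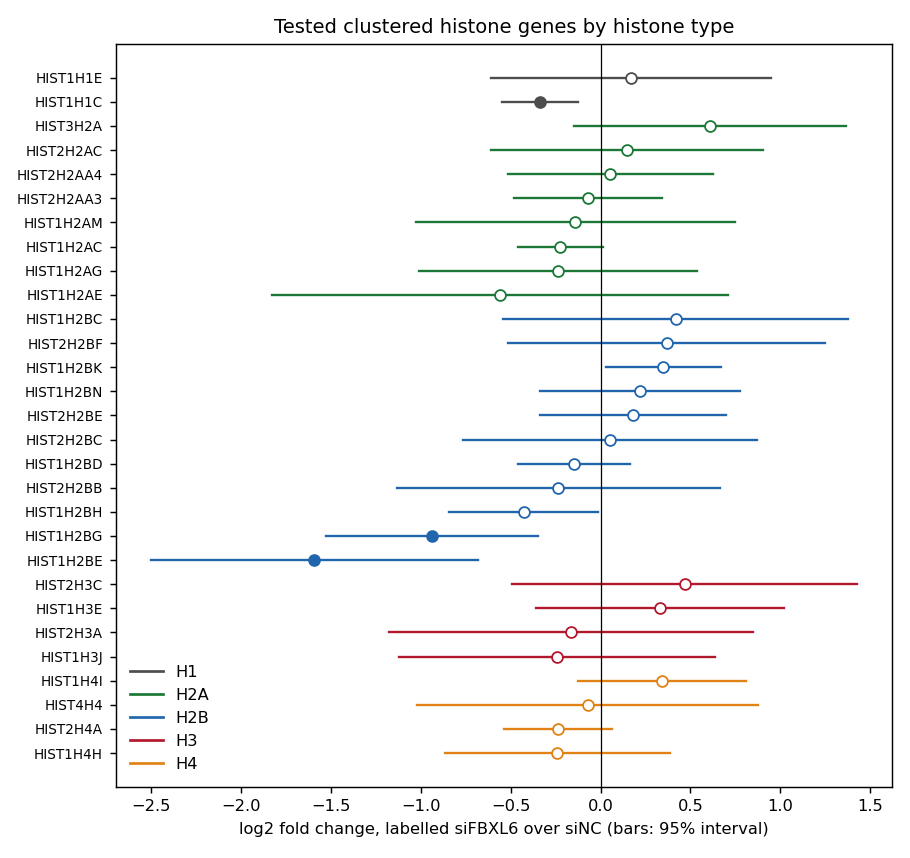
Log2 fold change of the libraries labelled siFBXL6 over siNC (points) with its 95% interval (bars) for the 29 tested clustered histone genes, coloured by histone type. Filled points mark the 3 genes with an adjusted p under 0.05, HIST1H1C, HIST1H2BG and HIST1H2BE, all below 0.

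HIST1H1C (current symbol H1-2), the linker histone gene with the highest level of all members, lies at chr6:26055787-26056428 on the minus strand, and its model is 1 coding stretch of 642 bases. It was counted at 4.58, 5.41 and 4.58 CPM in siNC and at 3.70, 3.99 and 3.85 CPM in the libraries labelled siFBXL6. All 3 of the latter lay below all 3 of the former, with siNC replicate 2 standing highest. The log2 fold change was -0.34 ± 0.10 (SE), with a 95% interval from -0.55 to -0.13 (edgeR, adjusted p = 0.00904). Without siNC replicate 2 the log2 fold change was -0.25 and the call was lost (edgeR, adjusted p = 0.0903), the highest of adjusted p-values from 0.00574 to 0.0903 over 13 alternatives. The other tested H1 gene, HIST1H1E, had 0.410, 0.550 and 0.209 CPM against 0.661, 0.464 and 0.199 CPM, a log2 fold change of 0.17 ± 0.38 (SE), and its groups overlapped. Its direction turned without siNC replicate 3 (-0.12) or siFBXL6 replicate 1 (-0.24).

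HIST1H2BE and HIST1H2BG, both H2B genes of the cluster on chromosome 6, lay below the minimum of 1 CPM set for named members and were singled out after their values were seen. HIST1H2BG (H2BC8, chr6:26215159-26216692, minus strand) had 56, 40 and 58 counts in siNC and 34, 32 and 16 counts in the libraries labelled siFBXL6. The groups did not overlap, and siFBXL6 replicate 3 was lowest. Its log2 fold change was -0.94 ± 0.29 (SE, edgeR, adjusted p = 0.00871), and without siFBXL6 replicate 3 it was -0.67 and no longer called (edgeR, adjusted p = 0.0784, in a range from 0.00182 to 0.0784 over 13 alternatives). HIST1H2BE (H2BC6, chr6:26172059-26184655, plus strand) had 26, 27 and 13 counts in siNC and 6, 7 and 9 counts in the libraries labelled siFBXL6. These groups did not overlap either, and only siNC libraries had at least 10 counts, so the gene entered testing through siNC and had no value when 10 counts were asked for in every library. Its log2 fold change was -1.59 ± 0.45 (SE, edgeR, adjusted p = 0.00391), and -1.59 with no filter beyond 1 count, where entry does not depend on either group (edgeR, adjusted p = 0.00312). Of the 2585 exon bases of HIST1H2BE, 730 are shared with RP1-221C16.8, a gene on the opposite strand with 8, 3 and 6 counts against 4, 8 and 5 counts, so reads of these genes may not be separable.

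Other H2B genes did not pass the test. HIST1H2BK (H2BC12), the highest H2B gene per kilobase, had 1.44, 1.67 and 1.71 CPM in siNC and 2.13, 1.79 and 2.21 CPM in the libraries labelled siFBXL6, the only tested member with every value above the siNC libraries. Its log2 fold change was 0.35 ± 0.16 (SE, edgeR, adjusted p = 0.077). It was called in 1 of 13 alternatives, without siFBXL6 replicate 2, at 0.44 (edgeR, adjusted p = 0.0493, in a range from 0.0493 to 0.229). HIST1H2BH had 1.42, 1.17 and 1.25 CPM against 0.893, 1.13 and 0.830 CPM, a log2 fold change of -0.43 ± 0.20 (SE, edgeR, adjusted p = 0.0949), with groups that did not overlap. HIST1H2BD, whose model has 414 exon bases past the stem-loop, had 3.04, 2.01 and 2.18 CPM against 2.33, 2.17 and 2.02 CPM, and its log2 fold change was -0.15 ± 0.15 (SE), and 0.0566 without siNC replicate 1. HIST2H2BE, on chromosome 1, had 0.735, 0.648 and 0.557 CPM against 0.628, 0.795 and 0.780 CPM with a log2 fold change of 0.18 ± 0.25 (SE). This was 0.09 without siNC replicate 3 and 0.28 without siNC replicate 1 or siFBXL6 replicate 1. The H2B genes thus held estimates on both sides of 0, 6 above and 5 below, from -1.59 to 0.42.

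**Figure D5:**
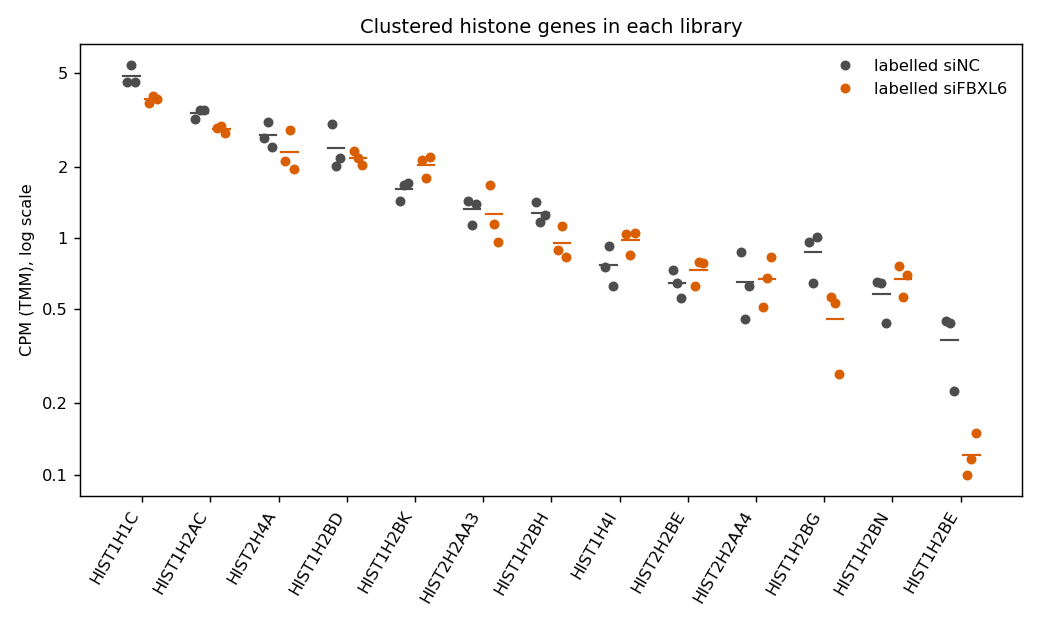
CPM (TMM, log scale) in each library of the 12 tested members with a mean of at least 0.6 CPM and of HIST1H2BE, points for libraries and bars for the mean of 3. HIST1H1C, HIST1H2AC, HIST1H2BH, HIST1H2BG and HIST1H2BE show all 3 libraries labelled siFBXL6 below the siNC libraries, and HIST1H2BK shows the opposite order.

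Among H2A genes none of 8 tested was called by edgeR, and their log2 fold changes ran from -0.56 to 0.61. The most abundant, HIST1H2AC, had 3.18, 3.46 and 3.48 CPM in siNC and 2.91, 2.98 and 2.79 CPM in the libraries labelled siFBXL6, groups that did not overlap. Its log2 fold change was -0.22 ± 0.12 (SE, edgeR, adjusted p = 0.134). HIST2H2AA3 had 1.44, 1.13 and 1.39 CPM against 1.67, 1.14 and 0.962 CPM, a log2 fold change of -0.07 ± 0.20 (SE), and 0.0936 without siFBXL6 replicate 3. Its copy HIST2H2AA4, with an identical coding sequence of 390 bases, had 0.872, 0.453 and 0.627 CPM against 0.513, 0.679 and 0.830 CPM, a log2 fold change of 0.05 ± 0.28 (SE) that turned without siNC replicate 2 (-0.15) or siFBXL6 replicate 3 (-0.12). Both had overlapping groups, and how reads were divided between identical copies is not given in the sources used here.

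The 4 tested H3 genes lay between 0.176 and 0.480 CPM on average, and none was called by edgeR. HIST1H3E had 0.222, 0.648 and 0.401 CPM in siNC and 0.579, 0.430 and 0.597 CPM in the libraries labelled siFBXL6, a log2 fold change of 0.33 ± 0.34 (SE) that was 0.02 without siNC replicate 1 and 0.78 without siNC replicate 2. HIST1H3J, the highest of them per kilobase, had 10, 16 and 17 counts against 14, 14 and 9 counts, nearly those of HIST1H2AM at 10, 14 and 16 against 14, 14 and 9 counts. These models share 346 exon bases on the same strand, so the counts of the pair may be largely the same reads. Both are counted among the tested members and in the sums. HIST2H3C had 6, 12 and 11 counts against 13, 20 and 8 counts, with a log2 fold change of 0.47 ± 0.47 (SE) that was 0.09 without siFBXL6 replicate 2. HIST2H3A, whose coding sequence is identical, had 6, 12 and 15 counts against 15, 10 and 5 counts and the opposite sign, -0.16 ± 0.50 (SE), which turned without siNC replicate 3 (0.15) or siFBXL6 replicate 3 (0.15). Both had overlapping groups.

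The H4 genes were represented mainly by HIST2H4A, which made up 56.6% of their sum, with 2.65, 3.08 and 2.42 CPM in siNC and 2.12, 2.85 and 1.96 CPM in the libraries labelled siFBXL6. The groups overlapped, and the log2 fold change was -0.24 ± 0.15 (SE, edgeR, adjusted p = 0.212). Without siFBXL6 replicate 2 it was -0.42 and called (edgeR, adjusted p = 0.0413, in a range from 0.0413 to 0.582 over 13 alternatives). It was -0.13 without siFBXL6 replicate 3 and -0.14 without siNC replicate 2, and not called in either. HIST2H4B has the identical coding sequence of 309 bases but had only 24 counts over the 6 libraries beside 902 for HIST2H4A. Of the 1876 exon bases of HIST2H4A, 1487 lie past the stem-loop, as many as in HIST2H4B, and 173 are shared with HIST2H3C on the opposite strand. The counts do not tell which part of the model the reads came from. HIST1H4I had 0.752, 0.923 and 0.627 CPM against 1.04, 0.844 and 1.05 CPM, a log2 fold change of 0.34 ± 0.23 (SE). This was 0.22 without siNC replicate 3 and 0.50 without siNC replicate 2. HIST1H4H had 0.616, 0.421 and 0.592 CPM against 0.413, 0.563 and 0.398 CPM, a log2 fold change of -0.24 ± 0.31 (SE). This was -0.14 without siNC replicate 1 and -0.41 without siFBXL6 replicate 2.

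Among the 60 members with another member of equal coding length, 8 had a coding sequence identical to that of another, and the median identity with the closest was 90.3%. No H1 gene had another member of equal coding length, so none was compared, and an effect of similarity on the counts was not tested. The H2A and H2B genes often lie head to head: 13 divergent pairs of an H2A and an H2B gene had starts under 1000 bases apart. Among the pairs with counts in both genes, the levels of the partners lay closest for HIST1H2BJ and HIST1H2AG, at 0.178 and 0.171 CPM per kilobase, and furthest apart for HIST1H2BK and HIST1H2AH, at 4.79 and 0.0582 CPM per kilobase.

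Promoters from RefSeq (GRCh38.p14), from 250 bases before to 50 after the start, were found for 65 members and searched on both strands. CCAAT was found in 55 of 65 members, or 84.6%, and in 35.7% of all 27305 promoters of the table. TATAAA was found in 43, or 66.2%, and in 12.0% of all promoters. The octamer ATTTGCAT, known as a binding motif of POU2F1, was found in 26 members, or 40.0%, and in 1.80% of all promoters. It was found in 14 of 18 H2B, 11 of 16 H2A, 1 of 12 H3, 0 of 6 H1 and 0 of 13 H4 promoters, and divergent neighbours share part of their windows. The 1 H3 match is HIST1H3D, whose RefSeq start is that of HIST1H2AD, so this promoter is counted under both types. A match is a description of these letters only. The start is that of RefSeq, which for HIST1H2BE lies inside the counted model (chr6:26172059-26184655) and is not its beginning. The 150 bases before the start of the 3 called genes and of HIST1H2BK are shown, because these are the called members and the only member with every library labelled siFBXL6 above siNC, with matches to these 3 motifs in capitals.
HIST1H1C, chr6:26056471-26056620, minus strand: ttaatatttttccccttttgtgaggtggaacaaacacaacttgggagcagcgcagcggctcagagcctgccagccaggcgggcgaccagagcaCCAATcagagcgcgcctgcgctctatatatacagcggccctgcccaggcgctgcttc
HIST1H2BE, chr6:26183611-26183760, plus strand: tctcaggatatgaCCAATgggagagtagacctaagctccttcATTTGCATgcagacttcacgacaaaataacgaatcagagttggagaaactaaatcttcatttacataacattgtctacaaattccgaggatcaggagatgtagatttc
HIST1H2BG, chr6:26216689-26216838, minus strand: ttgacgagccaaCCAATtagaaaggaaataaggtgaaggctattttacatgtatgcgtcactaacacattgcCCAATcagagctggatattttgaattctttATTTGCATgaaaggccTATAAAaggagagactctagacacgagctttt
HIST1H2BK, chr6:27146859-27147008, minus strand: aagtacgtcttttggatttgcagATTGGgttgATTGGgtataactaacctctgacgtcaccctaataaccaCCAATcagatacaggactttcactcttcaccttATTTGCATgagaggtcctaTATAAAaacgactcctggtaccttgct

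HIST1H2BE, HIST1H2BG and HIST1H2BK all carry the octamer, 108, 48 and 46 bases before the start. HIST1H2BK was not called, and a relation of the motif to the fold changes was not tested. HIST1H1C has no octamer and a CCAAT 57 bases before its start.

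The genes that make or handle histone messages were read from lists. Genes were named from each list mostly for the smallest adjusted p, so groups that do not overlap were likely in them and add no support. Over all tested genes, every library labelled siFBXL6 lay above every siNC library in 24.3% and below in 23.9%. Of the tested genes of these lists, 13 of 14 end factors, 8 of 9 regulators and 11 of 12 variants had a higher mean CPM than HIST1H1C. Of the 12428 tested genes above that level, 28.5% were called higher and 27.3% lower. Of 14 factors of the histone messenger RNA end, 3 rose and 4 fell in edgeR. Without siFBXL6 replicate 1, 1 rose and 2 fell, and without siNC replicate 1, 3 rose and 2 fell. SLBP, which binds the stem-loop, had 79.6, 79.6 and 80.8 CPM in siNC and 71.7, 69.9 and 69.6 CPM in the libraries labelled siFBXL6, and fell with a log2 fold change of -0.18 ± 0.03 (SE, edgeR, adjusted p = 1.39e-05). ZCCHC6, a uridylyltransferase that acts in histone message decay, had 139, 140 and 139 CPM against 169, 166 and 164 CPM and rose (0.26 ± 0.03 SE, edgeR, adjusted p = 9.88e-09). UPF1, a helicase in the same decay, had 74.2, 74.6 and 72.6 CPM against 65.9, 65.2 and 64.0 CPM and fell (-0.18 ± 0.03 SE, edgeR, adjusted p = 2.39e-05). In each of these 3 genes the groups did not overlap.

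Of 9 regulators of histone gene transcription, 2 rose and 3 fell. NPAT, the coactivator of these genes at the entry into S phase, had 17.0, 17.2 and 16.4 CPM against 13.8, 15.8 and 13.8 CPM, and fell with a log2 fold change of -0.22 ± 0.06 (SE, edgeR, adjusted p = 0.00364). CCNE1, whose cyclin activates NPAT through CDK2, had 59.1, 56.9 and 58.8 CPM against 54.3, 51.3 and 50.8 CPM and fell (-0.16 ± 0.04 SE, edgeR, adjusted p = 0.000579). E2F3, a transcription factor of S-phase entry, had 355, 358 and 360 CPM against 318, 324 and 312 CPM and fell (-0.17 ± 0.03 SE, edgeR, adjusted p = 1.05e-05). The groups did not overlap in these 3 genes, nor in POU2F1, which binds the octamer and had 36.8, 34.3 and 33.9 CPM against 40.6, 39.7 and 38.5 CPM. It rose (0.18 ± 0.04 SE, edgeR, adjusted p = 0.000803). SLBP, ZCCHC6, UPF1 and these 4 genes were called in all 13 alternatives. CDK2, the other regulator that rose, had 86.4, 104 and 101 CPM against 109, 109 and 110 CPM. Its log2 fold change was 0.17 ± 0.04 (SE, edgeR, adjusted p = 0.00106), and siNC replicate 1 was its lowest library.

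Of the 12 variants, 3 rose and 5 fell in edgeR. H1F0 had 123, 118 and 119 CPM in siNC and 149, 146 and 149 CPM in the libraries labelled siFBXL6, and rose with a log2 fold change of 0.30 ± 0.03 (SE, adjusted p = 7.3e-10). H2AFY2, a macroH2A gene, had 41.4, 41.9 and 41.2 CPM against 31.9, 29.3 and 31.3 CPM and fell (-0.43 ± 0.04 SE, edgeR, adjusted p = 2.34e-10). H3F3A, a source of H3.3, had 115, 125 and 124 CPM against 102, 104 and 104 CPM and fell (-0.23 ± 0.03 SE, edgeR, adjusted p = 9.48e-07). The groups of these 3 genes did not overlap. H3F3B, the most abundant variant, had a log2 fold change of -0.02 ± 0.03 (SE) and was not called. H2AFX, whose gene also has the stem-loop, had 30.8, 31.0 and 30.2 CPM against 28.2, 27.5 and 25.8 CPM and fell (-0.17 ± 0.05 SE, edgeR, adjusted p = 0.00217).

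All tested genes of the lists of chaperones, DNA synthesis and mitosis also lay above that level. Beside the same 28.5% higher and 27.3% lower, all 3 lists held a larger share of lower calls and a smaller share of higher calls. The genes behind those percentages were not matched to the lists by level within that range, and a difference beyond level was not tested. Of 23 chaperones, 4 rose and 14 fell in edgeR, with a median log2 fold change of -0.12. NASP, which holds free H3 and H4, had 1626, 1501 and 1509 CPM against 1226, 1236 and 1189 CPM and fell (-0.34 ± 0.03 SE, edgeR, adjusted p = 1.13e-11). SSRP1, a subunit of the FACT complex, had 1328, 1200 and 1256 CPM against 1058, 1011 and 1064 CPM and fell (-0.27 ± 0.03 SE, edgeR, adjusted p = 7.34e-09). DAXX, which deposits H3.3, had 152, 142 and 141 CPM against 174, 174 and 165 CPM and rose (0.24 ± 0.03 SE, edgeR, adjusted p = 3.1e-07). The groups of these 3 genes did not overlap.

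Of 30 DNA synthesis genes, 4 rose and 16 fell, with a median of -0.11. GINS1, part of the replicative helicase, had 45.6, 45.9 and 46.3 CPM against 61.5, 61.3 and 64.3 CPM and rose (0.44 ± 0.04 SE, edgeR, adjusted p = 3.07e-12). CDC6, which loads the helicase, had 156, 156 and 161 CPM against 186, 201 and 195 CPM and rose (0.30 ± 0.03 SE, edgeR, adjusted p = 2.11e-09). MCM3, another helicase subunit, had 301, 289 and 297 CPM against 237, 231 and 232 CPM and fell (-0.34 ± 0.03 SE, edgeR, adjusted p = 1.21e-11). Parts of the same machine thus moved in both directions, each with groups that did not overlap.

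Of 20 mitosis genes, 3 rose and 13 fell, with a median of -0.13. KIF20A, a kinesin of cytokinesis, had 55.5, 54.8 and 59.7 CPM against 37.2, 39.0 and 40.4 CPM and fell (-0.54 ± 0.04 SE, edgeR, adjusted p = 3.59e-13). BIRC5, a subunit of the chromosomal passenger complex, had 91.1, 88.5 and 92.6 CPM against 70.4, 68.2 and 69.6 CPM and fell (-0.39 ± 0.03 SE, edgeR, adjusted p = 5.49e-12). TOP2A, a topoisomerase, had 1238, 1159 and 1126 CPM against 929, 964 and 945 CPM and fell (-0.31 ± 0.03 SE, edgeR, adjusted p = 2.11e-10). Neither these 3 genes nor the CDK inhibitors called had overlapping groups. Of 7 CDK inhibitors, 5 of them above the level of HIST1H1C, 2 rose and 2 fell, with CDKN1B (-0.21 ± 0.05 SE) and CDKN2A (-0.23 ± 0.04 SE) lower. CDKN2D (0.19 ± 0.07 SE, edgeR, adjusted p = 0.0272) and CDKN1A (0.09 ± 0.04 SE, edgeR, adjusted p = 0.0496) were the higher ones, and this count was 0 without siNC replicate 1, siNC replicate 2, siFBXL6 replicate 1 or siFBXL6 replicate 2 and 1 without siFBXL6 replicate 3. The call of CDKN2D held in 6 of 13 alternatives (adjusted p from 0.0217 to 0.0953) and was lost without siNC replicate 1 (0.18), siNC replicate 2 (0.17), siFBXL6 replicate 1 (0.19) or siFBXL6 replicate 2 (0.17). That of CDKN1A held in 3 of 13 alternatives and was lost without any library but siNC replicate 3 (0.06 to 0.10, adjusted p from 0.0778 to 0.201). Cell cycle phase was not measured, and fewer cells in S phase and less RNA per cell cannot be told apart in bulk libraries.

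The levels left after selection were read for 22 RNAs made without a poly(A) tail. The share of these RNAs that passed the selection was not measured. Their summed level was 208, 211 and 192 CPM in siNC and 229, 202 and 201 CPM in the libraries labelled siFBXL6, groups that overlapped. Of these 22, 12 were tested, 7 of them no higher than HIST1H1C, 0 rose and 1 fell in edgeR (RPPH1, the RNA of ribonuclease P, -0.12 ± 0.04 SE, adjusted p = 0.0303, called in 8 of 13 alternatives), and the median log2 fold change was -0.02. RN7SK (0.13 ± 0.06 SE, edgeR, adjusted p = 0.0818) and RN7SL2 (0.11 ± 0.05 SE, edgeR, adjusted p = 0.0534) were each called higher in 6 of 13 alternatives, with adjusted p from 0.00488 to 0.973 and from 0.013 to 0.455. Without siFBXL6 replicate 1, the library highest in RN7SK, its log2 fold change was 0.00, and without siFBXL6 replicate 3 it was 0.20 and called. RN7SK was also called without siNC replicate 1 (0.14), siNC replicate 2 (0.17) or siFBXL6 replicate 2 (0.17), and RN7SL2 without siNC replicate 1 (0.13) or siFBXL6 replicate 3 (0.16). When 1 library was left out, the log2 fold change of RN7SL2 ranged from 0.05 to 0.16. The call of RPPH1 was lost without siNC replicate 2 (-0.10), siNC replicate 3 (-0.11), siFBXL6 replicate 2 (-0.09) or siFBXL6 replicate 3 (-0.12), with adjusted p up to 0.18. DESeq2 called 0 of the list higher and 0 lower. The sum rests on RN7SK, RN7SL1, RN7SL2 and RPPH1, which made up 94.1% of it, while 15 of the other 18 lay under 0.3 CPM. The part of RNA without a tail in the members' values was not tested.

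Epithelial and urothelial markers were read from a list, and whether their levels are those of T24 cells was not tested. KRT7, KRT19 and KRT5, epithelial keratins, lay at 1011, 676 and 375 CPM on average. EPCAM lay at 261, TP63 at 143, CDH1 at 125 and GATA3 at 11.5 CPM. UPK1A, a protein of the urothelial surface, had no count, and KRT20 and UPK3A lay at 0.00551 and 0.0196 CPM. Of 15 such markers, 11 were tested, 2 rose and 6 fell in edgeR, and 10 of the 11 lay above the level of HIST1H1C, where 28.5% of genes were called higher and 27.3% lower. Markers of blood, endothelial, stromal and smooth muscle cells summed to 45.7, 48.7 and 45.7 CPM in siNC and 44.4, 43.9 and 44.2 CPM in the libraries labelled siFBXL6. The most abundant was COL1A1 at 33.2 CPM, and CD3E lay at 0.0108 CPM. Of 11, 10 were tested, 1 rose (PECAM1, 0.982 CPM on average, 1.28 ± 0.24 SE, adjusted p = 4.4e-05) and 1 fell (COL1A1, -0.15 ± 0.04 SE, adjusted p = 0.00427) in edgeR, and 8 of the 10 lay no higher than HIST1H1C, where 9.28% of genes were called higher and 9.14% lower. The part of these markers in the members' values was not tested.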

How the data were processed

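RNA of T24 cells was sequenced in 6 libraries, 3 labelled siNC and 3 labelled siFBXL6. The deposited counts per gene were made by the authors on GRCh38. The submitters' processing notes name fastp 0.23.0, STAR, featureCounts and Subread 1.5.1, and the study's methods name Trimmomatic and HISAT2 in place of the trimmer and aligner. The annotation release, the settings for strand, shared and multiply mapped reads, and whether reads or fragments were counted are not given in the sources used here. The deposited gene length (another value of the table, in exon bases) was used for levels per kilobase.

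Counts were tested with edgeR 4.0.16 in R 4.3.3 (filterByExpr, TMM, quasi-likelihood, Benjamini-Hochberg over all tested genes, threshold 0.05), after the code recovered known changes in simulated data. DESeq2 1.42.0, other normalizations and filters, a replicate block and leaving out each library were alternatives. Named members were those with an adjusted p under 0.05 and at least 1 CPM and, among the tested members, the 3 highest per kilobase of each type; of each context list the 3 smallest adjusted p-values, with SLBP and NPAT always added. Of 34877 genes with a symbol also in GENCODE 44, 80.9% had the same start or end, so coordinates were read on GRCh38. All 75 members matched a RefSeq gene by symbol and position. The members and lists were chosen with earlier results of these data known. The limits given for counts of 0 cover counting error only, and intervals of fold changes come from the edgeR model. The labels do not say whether replicates were separate cultures, so p-values measure the spread between these libraries, which may be technical.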

Additional observations from a re-analysis of the deposited data

How the results depend on the processing

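Over the settings of test, scaling and filter, 7026 (DESeq2) to 8707 (library size alone) genes were called, and 7451 to 8298 when 1 library was left out, beside 8569. An adjusted p under 0.01 left 6599 and a minimum of 1.5-fold 1581. Clustered histone genes called higher numbered 0 to 1 over the leave-outs (1 was HIST1H2BK, without siFBXL6 replicate 2) and 0 otherwise. Those called lower numbered 2 to 4 over the leave-outs, with HIST1H2AE added without siFBXL6 replicate 1, where it passed the filter through siNC alone, and HIST2H4A without siFBXL6 replicate 2, and 2 or 3 otherwise. Of the members named by the rule, 0 to 3 were called over the leave-outs, 0 without siNC replicate 2 and 3 without siFBXL6 replicate 2. With the replicate block, 8408 genes, 0 members higher, 3 lower and 1 named member were called, as were RN7SK (0.12, adjusted p = 0.0339) and RN7SL2 (0.11, adjusted p = 0.0315), both higher, and 1 CDK inhibitor was higher. The replicate numbers did not pair the libraries (correlations of -0.0108, 7.99e-05 and 0.0133 for equal numbers, and -0.0184 to 0.0185 over all 9). The summed level had a log2 ratio of -0.15 to -0.08 throughout. Among named genes, signs turned only in those not called: over the leave-outs HIST1H1E ranged from -0.24 to 0.52, HIST2H2AA3 from -0.32 to 0.0936, HIST2H2AA4 from -0.15 to 0.32, HIST2H3A from -0.57 to 0.15, HIST1H2BD from -0.26 to 0.0566 and ACTB from -0.0176 to 0.0175. ACTB was also -0.0192 with upper-quartile factors, -0.0218 with library size alone and -0.000833 without the filter. The cause was not tested. HIST1H2BE had no value with at least 10 counts in every library. By histone type the log2 ratio of the summed levels ranged over the leave-outs from -0.31 to -0.15 (H1), -0.18 to -0.05 (H2A), -0.14 to -0.06 (H2B), -0.05 to 0.39 (H3, where the sign turned without siNC replicate 1) and -0.18 to -0.03 (H4). Of the context lists, the factors of the histone messenger RNA end had 1 to 3 higher and 2 to 5 lower calls over the leave-outs, chaperones 3 to 4 and 11 to 12, DNA synthesis 4 and 12 to 18, mitosis 2 to 4 and 10 to 14, CDK inhibitors 0 to 2 and 2, and RNAs without a poly(A) tail 0 to 2 and 0 to 2. The alternatives for the type sums, the context lists, HIST1H2BE, HIST1H2BG and other genes named outside the rule were chosen after seeing the data. Most members had too few counts for changes under 1.5-fold to be detected, and the untailed share of the histone messages was not measured.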

Other observations

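The 14 genes with histone prefixes that the rule left out held 21, 11 and 8 counts in siNC and 18, 23 and 18 counts in the libraries labelled siFBXL6.

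Among values of 1 to 20 counts, 70.8% to 71.9% were even numbers in every library, as were 73.0% of the 189 such values of the members. Whether both mates of a read pair were counted was not tested. If they were, low counts such as those of HIST1H2BE stand for fewer read pairs than their number. Genes of at least 200 bases lying wholly inside the exons of a gene with at least 10000 counts had a median count per base of 0.519 times that of the outer gene on the same strand (67 pairs) and 0.602 times on the opposite strand (181 pairs).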
